A study of Mus musculus with 18 samples.

Results

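A fixed list of genes that mark the endothelium, the cell layer facing the blood, were followed in bulk RNA-seq of the mouse aorta: Pecam1, Cdh5, Nos3, Vwf, Kdr, Tie1, Tek, Emcn, Cldn5 and Eng. They were chosen by symbol, and all 10 were found among the 55453 gene symbols of each of 2 count tables. In the HDR experiment, 5 wild-type (WT) aortae were compared with 5 Tspan2 sg/sg aortae, in which homology-directed repair with Cas9, a single-guide RNA and an oligonucleotide template had replaced CCT by GTC in the CArG box of the Tspan2 promoter. In the PE2 experiment, 4 WT aortae were compared with 4 Tspan2 peg/peg aortae, in which prime editing, a nicking Cas9 fused to a reverse transcriptase and led by a pegRNA, had put C>G at a single base of the same box. The HDR mice were 12 weeks old and labelled C57BL/6, with 3 females and 2 males in each genotype. The PE2 mice were 8 weeks old and labelled FVB/N/B6(Cg)-Tyrc-2J/J. Of these, 1 WT mouse was male and the other 7 mice were female. Each library was made from a single aorta cleaned of the tissue around it. The edited alleles are germline changes carried by every cell of the mouse, endothelial cells included, and homozygotes came from crosses of heterozygotes bred from founders, so that a founder variant linked to the edit can be shared by the edited mice.

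The endothelium is held together by homophilic adhesion and tight junctions, senses vascular growth factors through receptor tyrosine kinases, releases nitric oxide to relax the muscle below it and stores the clotting factor to which platelets bind. Pecam1 and Cdh5 (VE-cadherin) are adhesion molecules of endothelial contacts, and Cldn5 is a tight junction protein. Kdr is the main signalling receptor for VEGF-A, Tek (Tie2) is the receptor of the angiopoietins, Tie1 is the related receptor that modulates Tek, and Eng (endoglin) is a co-receptor for BMP9 and TGF-beta ligands. Nos3 is the endothelial nitric oxide synthase, Vwf is von Willebrand factor, and Emcn (endomucin) is a sialomucin of the luminal surface that is known to be more abundant in veins and capillaries than in arteries. The CArG box binds serum response factor, which drives contractile genes of smooth muscle, and the 10 genes mark another cell type of the same wall. In bulk tissue, fewer endothelial cells and less RNA per endothelial cell cannot be told apart.

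In peg/peg library 3, described further on, Tek was low with most of the other members, while Kdr and Emcn were not. That library was the lowest PE2 library for Cldn5, but only by a small margin. The sequences upstream of these 4 genes are shown because of how the genes behaved there. They are from RefSeq (GRCm38.p6), read on the strand of the gene from 250 bases before its start and ended where the first Gencode exon begins, and capitals mark CAGGAA on either strand (TTCCTG on the strand shown), a core bound by factors of the ETS family such as Erg and Fli1.
Tek, chr4:94739039-94739288, plus strand: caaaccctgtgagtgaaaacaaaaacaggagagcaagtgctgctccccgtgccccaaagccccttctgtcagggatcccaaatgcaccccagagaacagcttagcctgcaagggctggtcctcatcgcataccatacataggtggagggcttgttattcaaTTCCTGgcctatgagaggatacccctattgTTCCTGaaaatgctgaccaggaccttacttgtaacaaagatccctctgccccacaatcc
Emcn, chr3:137340828-137341066, plus strand: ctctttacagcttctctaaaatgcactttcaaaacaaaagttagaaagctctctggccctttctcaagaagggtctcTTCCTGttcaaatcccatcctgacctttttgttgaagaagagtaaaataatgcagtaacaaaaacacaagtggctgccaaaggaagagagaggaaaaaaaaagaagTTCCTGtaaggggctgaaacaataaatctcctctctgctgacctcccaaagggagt
Kdr, chr5:75978459-75978705, minus strand: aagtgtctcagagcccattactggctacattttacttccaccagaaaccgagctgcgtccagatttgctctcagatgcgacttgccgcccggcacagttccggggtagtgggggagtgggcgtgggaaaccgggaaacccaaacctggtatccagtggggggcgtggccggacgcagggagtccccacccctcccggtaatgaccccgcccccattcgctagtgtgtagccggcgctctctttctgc
Cldn5, chr16:18776597-18776846, plus strand: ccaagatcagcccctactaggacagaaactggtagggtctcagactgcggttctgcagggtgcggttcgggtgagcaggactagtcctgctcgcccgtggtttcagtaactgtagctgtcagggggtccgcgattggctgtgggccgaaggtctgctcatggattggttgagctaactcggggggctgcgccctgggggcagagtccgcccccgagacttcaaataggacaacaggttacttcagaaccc
Promoters were found for 6 of the 10 members. In the 250 bases before the start, CAGGAA on either strand was present in 3 of these 6, against 25.7% of all 32851 promoters. Tek and Emcn had 2 copies each and Tie1 had 1 copy. Other forms of the ETS core were not searched, so a promoter without CAGGAA may still hold one. Tek and Emcn held 2 and 1 CG dinucleotides, Eng and Tie1 held 4 and 6, and Kdr and Cldn5 held 16 and 12. The median over all promoters was 6. A CArG box, searched on both strands, was found in 0 of the 6 and in 1.47% of all promoters. These matches describe letters and not bound sites. Their part in the levels of peg/peg library 3, which went against its label of aorta, was not tested. Emcn is the only member on the chromosome of Tspan2 (chromosome 3), 34.5 Mb away from it.

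Tspan2, the edited gene, was lower in every edited library than in every WT library of its experiment (112 to 265 against 16.0 to 36.6 CPM in HDR and 186 to 284 against 11.9 to 25.5 CPM in PE2), as the labels say. CPM is the number of a gene's reads per 1000000 reads of the library. The libraries held 17290992 to 24880385 counts in HDR and 38820265 to 44895615 in PE2. The library that went most against its label of aorta was peg/peg 3. Its Spearman correlation with the other PE2 libraries was 0.895 to 0.907, while the other 7 libraries correlated with each other at 0.969 to 0.988. It held 622 CPM of elastin (Eln) against 11617 to 34850 CPM in the other 7 PE2 libraries. In HDR, Eln was at 530 to 2915 CPM in WT and 430 to 2508 CPM in sg/sg. A level of 622 CPM is thus low against the PE2 libraries only and does not by itself go against aorta. All 8 listed urothelial genes (uroplakins and keratins known from the lining of the bladder) were above the other 7 libraries. So were all 6 visceral muscle and distal Hox genes. Peg/peg 3 held 228 CPM of Upk1a, 5570 CPM of desmin (Des) and 55.7 CPM of Hoxa13. In HDR, WT library 3 had a milder form of this, with the same 6 visceral genes above all other libraries (Des 945 CPM), and its 10 endothelial genes all lay within the range of the other 9. The 8 urothelial genes summed to 137 CPM in that library, to 107 CPM in sg/sg library 4 and to 44.7 CPM in sg/sg library 2, against 1.01 to 9.95 CPM in the other 7 HDR libraries. In PE2 they summed to 60.7 CPM in peg/peg library 4, against 12.9 to 32.9 CPM in WT. Peg/peg libraries 1 and 2 held 5.07 and 7.23 CPM. The visceral sum of peg/peg library 4, 507 CPM, lay within the WT range of 264 to 558 CPM. These 2 gene lists were chosen after the data were seen. Results that rest on peg/peg 3 are given with and without it. The HDR libraries also fell into 6 with 1120 to 1578 CPM of Xist and 4 with 0.761 to 1.82 CPM, 3 and 2 of each genotype, which matches the number of each sex in the labels. Library numbers are those of the table columns, and in HDR they could not be matched to single mice.

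All 10 genes were well measured, with 179 counts for Emcn in the lowest library and 49903 counts for Pecam1 in the highest. Set per kilobase of exon (Gencode, GRCm38), Pecam1 was the most abundant in WT aortae of both experiments, at 96.1 ± 21.2 (SD, n = 5) CPM per kb in HDR and 113 ± 18.9 (SD, n = 4) in PE2. Emcn was the least abundant, at 3.46 ± 0.535 and 8.27 ± 0.895 CPM per kb, and Kdr the next, at 6.42 ± 2.16 and 10.7 ± 1.07 CPM per kb. The span from highest to lowest mean was 27.7-fold in HDR and 13.6-fold in PE2. Between these ends came Vwf, Cdh5, Tek, Eng, Cldn5, Nos3 and Tie1 in HDR, in that order, from 32.3 ± 12.3 to 15.5 ± 2.64 CPM per kb. The library ranges overlapped in 7 of the 9 neighbouring pairs of this order. The separated pairs were Pecam1 above Vwf (60.4 or more against 47.3 or less) and Tie1 above Kdr (11.2 or more against 8.51 or less). In PE2 the order after Pecam1 was Cdh5, Eng, Cldn5, Vwf, Tek, Tie1, Nos3, Kdr and Emcn, again with 7 of 9 neighbouring ranges overlapping and with Pecam1 above Cdh5 and Nos3 above Kdr.

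**Figure D1:**
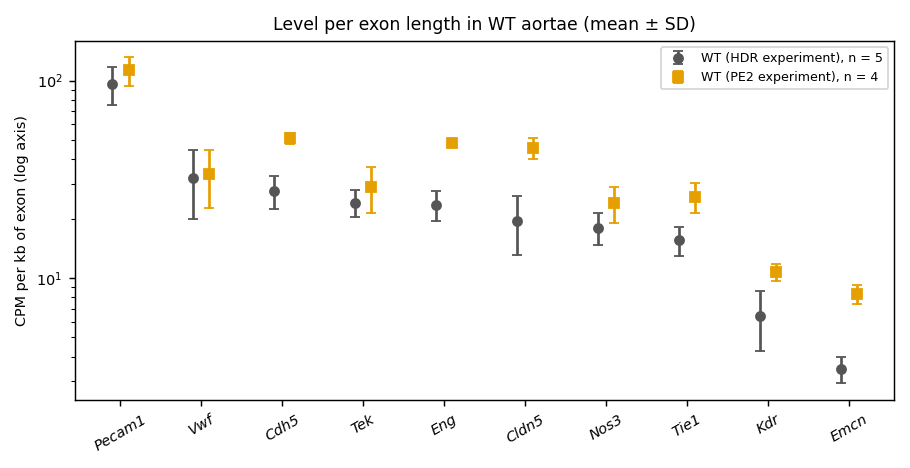
Level of the 10 genes in CPM per kb of exon (vertical log axis) in WT aortae, circles for the HDR experiment (n = 5) and squares for the PE2 experiment (n = 4), with bars of 1 SD. Pecam1 is at the top in both at 96.1 and 113 CPM per kb, Kdr and Emcn are at the bottom, and Emcn, Cldn5 and Eng are further apart between the experiments than Vwf and Pecam1.

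The PE2 WT mean was above the HDR WT mean for each of the 10 genes, but by unequal amounts: 1.04-fold for Vwf, 1.17-fold for Pecam1 and 1.20-fold for Tek, against 2.07-fold for Eng, 2.33-fold for Cldn5 and 2.39-fold for Emcn. No test was made of this, because labelled strain, age, mix of sexes and sequencing experiment differ together between the 2 sets of WT mice. They cannot be told apart. The labels give different strains for the 2 sets, while the methods state that both edits were made in the same mouse strains.

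In sg/sg aortae, the mean of each of the 10 endothelial genes differed from that of WT aortae by less than the SD of the libraries. None of them passed edgeR's quasi-likelihood test at a Benjamini-Hochberg adjusted p under 0.05, where 1 of 16423 genes (0.00609%), Tspan2, did. At an unadjusted p under 0.05 the members were again 0 of 10, against 1.98% of all genes tested, and limma-voom and DESeq2 also called 0 members. All 10 adjusted p-values were 1.00. In 7 members the estimate was above 0 and in 3 below, and their median log2 fold change, sg/sg over WT, was 0.04, against 0.00 over all genes.

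Among the junction genes, Pecam1 was at 649.9, 633, 728, 376 and 604 CPM in WT libraries 2 to 6 and at 653, 649.6, 1084, 664 and 504 CPM in sg/sg libraries 2 to 6. WT library 5 was low and sg/sg library 4 was high, the groups overlapped, and the log2 difference was 0.25 ± 0.22 (SE; 95% interval -0.23 to 0.73). Cdh5 was at 92.5 to 139.7 CPM in WT and 70.2 to 145 CPM in sg/sg, and Cldn5 at 19.1 to 41.4 and 19.1 to 42.8 CPM, nearly the same range in both genotypes. Their log2 differences were 0.05 ± 0.20 and 0.07 ± 0.25 (SE). Nos3, the source of endothelial nitric oxide, was at 88.0, 78.2, 75.6, 51.3 and 78.6 CPM in WT and 83.4, 68.8, 97.1, 74.4 and 51.7 CPM in sg/sg, with a mean of 74.3 ± 13.7 and 75.1 ± 16.9 CPM (SD, n = 5). The interval of its fold change was 0.771 to 1.32. Vwf ranged 3.30-fold within WT (230.1 to 759 CPM) and 3.64-fold within sg/sg (243 to 886 CPM), which was wider than the difference of the means, 518 and 572 CPM.

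Of the receptors, Kdr had the lowest estimate. It was at 76.9, 41.9, 32.9, 65.3 and 73.0 CPM in WT and at 53.7, 48.6, 71.9, 68.5 and 16.9 CPM in sg/sg. Only sg/sg library 6 lay outside the WT range, and the log2 difference of -0.16 ± 0.35 (SE) had an interval of -0.92 to 0.60. Tek was at 84.5 to 130.4 CPM in WT and 90.6 to 176 CPM in sg/sg, Tie1 at 55.1 to 89.1 and 49.1 to 107 CPM, and Eng at 76.4 to 121 and 56.9 to 106 CPM. Emcn was at 15.0 to 21.7 CPM in WT and 9.52 to 28.6 CPM in sg/sg, with the highest and the lowest of all 10 libraries in the edited group. Over the 10 members the SE was 0.18 to 0.35 on the log2 scale, and the widest intervals, those of Kdr on the low side and Vwf on the high side, reached fold changes of 0.530 and 1.89. No member's groups were separate, against 0.317% of all genes.

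In peg/peg aortae the estimates of the members were below WT, but none passed the test and the median moved close to 0 when library 3 was left out. The adjusted p was 0.861 to 0.995, with 0 of 10 called, where 1 of 16401 genes (0.0061%), again Tspan2, was called. limma-voom and DESeq2 also called 0 members. All 10 estimates were below 0, with a median log2 fold change, peg/peg over WT, of -0.24 against 0.01 over all genes. At an unadjusted p under 0.05 there was 1 of 10 members, Kdr, against 4.3% of all genes in either direction and 1.27% with a lower value.

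Kdr, the VEGF receptor, was at 101, 107, 85.4 and 92.6 CPM in WT and at 73.5, 86.4, 78.5 and 78.0 CPM in peg/peg libraries 1 to 4. Peg/peg library 2 lay just above the lowest WT library, and the other 3 lay below all WT libraries. The log2 difference was -0.29 ± 0.10 (SE; unadjusted p = 0.0165, edgeR adjusted p = 0.861), and library 3 was in the middle of its group, so that without it the value was -0.29 ± 0.10 (edgeR adjusted p = 0.989). Kdr had the smallest unadjusted p of the members with all libraries and did not pass the correction over all genes. Cldn5 had a similarly narrow spread, with 64.0, 62.7, 75.2 and 55.9 CPM in WT and 60.6, 62.2, 53.7 and 54.2 CPM in peg/peg. Its difference was -0.16 ± 0.11 (SE), with a fold change interval of 0.756 to 1.06.

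The other members had a much wider spread in peg/peg. Nos3 was at 119.5, 78.3, 85.4 and 114 CPM in WT and at 91.8, 148, 16.9 and 69.9 CPM in peg/peg, an 8.76-fold span within the edited group. Vwf spanned 9.04-fold there, with 699, 971, 107 and 284 CPM, and Pecam1 6.82-fold, with 769.6, 1269.7, 186 and 553 CPM. For these 3 genes library 2 was the highest and library 3 the lowest of all 8. Cdh5, Tie1, Tek and Eng had the same 2 libraries at the ends, from 276 to 90.3, 150.4 to 61.3, 228 to 59.3 and 213 to 116 CPM. With an SE of 0.18 to 0.61 on the log2 scale for these 7, the intervals still held fold changes as low as 0.354 (Nos3) and as high as 2.53 (Vwf).

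**Figure D2:**
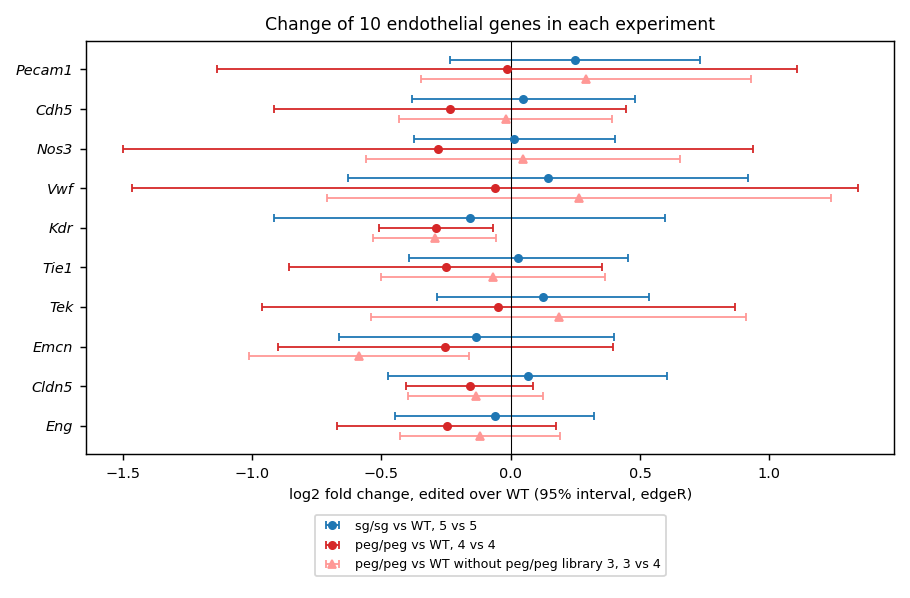
Log2 fold change, edited over WT, with its 95% interval from edgeR for the 10 genes, with blue for sg/sg (5 against 5), red for peg/peg (4 against 4) and pink triangles for peg/peg without library 3 (3 against 4). Every interval but those of Kdr in both PE2 fits and of Emcn in the fit without library 3 contains 0, and none of the 3 differences passed the correction over all genes.

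Library 3 held less of most endothelial genes but not of all. Against the median of the other 7 PE2 libraries it held 0.163 of the Vwf, 0.184 of the Nos3 and 0.249 of the Pecam1 CPM, 0.403 of Tek, 0.437 of Cdh5, 0.457 of Tie1 and 0.604 of Eng. Cldn5, at 0.863, and Kdr, at 0.909, were close to the others, and Emcn, at 1.52, was above all 7. A list of 24 other pan-endothelial genes split in the same manner: 18 were below the other 7 libraries, among them Erg (19.0 against at least 85.8 CPM), Sox7 (4.79 against at least 12.0 CPM) and Tm4sf1 (85.3 against at least 619.6 CPM), while Robo4, Ecscr and Cd34 were above them. Of 8 arterial genes, 6 were below, including the connexin Gja5 (15.1 against at least 79.2 CPM). Of 8 capillary genes, 6 were below and 2 above. Of 7 lymphatic genes 4 were above, including Lyve1 and Pdpn. These values stood beside those of the elastin and urothelial genes in the same library, and their part in the low endothelial level was not tested.

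Without library 3 the direction of the members was mixed, with 4 above and 6 below WT and a median log2 fold change of -0.04. Again 0 of 10 passed the adjusted threshold, where 2 of 16668 genes (0.012%) did. At an unadjusted p under 0.05 there were 2 members, both lower, against 1.91% of all genes lower: Kdr and Emcn. Emcn was at 44.9, 43.4, 51.2 and 39.5 CPM in WT and at 34.5, 34.4 and 21.0 CPM in peg/peg libraries 1, 2 and 4. These groups did not overlap, as in 5.22% of all genes in this comparison, and with 60.2 CPM library 3 lay on the other side of WT. With all 4 libraries the difference of Emcn was -0.25 ± 0.28 (SE) and without library 3 it was -0.59 ± 0.18 (SE; unadjusted p = 0.0133, edgeR adjusted p = 0.989). With all libraries no member's groups were separate, against 2.54% of all genes. In the HDR experiment Emcn differed by -0.13 ± 0.24 (SE), with overlapping groups. Peg/peg library 4, which had the lowest Emcn, held 60.7 CPM of urothelial genes, and their part in this value was not tested.

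The response of the members was not shown to differ between the edits. In the interaction over all 18 libraries, 0 of 10 members and 0 of 18094 genes (0.0%) passed the adjusted threshold with edgeR, and at an unadjusted p under 0.05 there were 0 members and 929 genes (5.13%), while DESeq2 called 12 genes and 0 members. All 10 differences, HDR minus PE2, were above 0, from 0.14 to 0.32 on the log2 scale, with SEs of 0.26 to 0.70. Their median was 0.24 with all libraries, 0.06 without peg/peg 3, and 0.03 when WT library 3 of HDR was left out as well. For Kdr, the difference was 0.15 with an interval of -0.76 to 1.05.

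Within the groups, most of the 10 genes varied together from library to library, Cldn5 the least in HDR and Kdr the least in PE2 without peg/peg 3. In HDR, sg/sg library 4 was the highest of all 10 libraries for Pecam1, Nos3, Vwf, Tie1, Tek and Emcn, WT library 5 was the lowest for Pecam1, Nos3, Vwf and Tek, and sg/sg library 6 the lowest for Cdh5, Kdr, Tie1, Emcn and Eng. In PE2, peg/peg library 2 was the highest for 7 genes, and apart from library 3 the lowest were peg/peg library 4 for 6 genes and WT library 2 for Pecam1, Tie1 and Tek. Over the 10 HDR libraries, with each genotype centred on its mean, the correlation of a gene with the mean of the other 9 was highest for Cdh5 (r = 0.92, rho = 0.89), Tie1 (r = 0.91, rho = 0.87) and Nos3 (r = 0.91, rho = 0.84). Emcn, at r = 0.77 (rho = 0.64), was level with Pecam1 (r = 0.78, rho = 0.76), Vwf (r = 0.77, rho = 0.65) and Tek (r = 0.80, rho = 0.64), and Eng was at r = 0.81 (rho = 0.67). Kdr was at r = 0.73 (rho = 0.79) and Cldn5 at r = 0.15 (rho = 0.32). Without the 2 libraries farthest from the median, r in HDR was 0.91 for Cdh5, 0.90 for Emcn, 0.83 for Nos3 and 0.73 for Tie1, but 0.57 for Tek, 0.55 for Pecam1 and for Eng, 0.50 for Vwf, 0.25 for Kdr and -0.05 for Cldn5, so that much of the shared variation of the latter genes rested on those libraries. Over the 7 PE2 libraries without peg/peg 3 it was r = 0.97 for Pecam1 (rho = 0.89), 0.96 for Eng (rho = 0.89), 0.94 for Cdh5 (rho = 0.75), 0.92 for Vwf (rho = 1.00), 0.90 for Tek (rho = 0.86), 0.88 for Nos3 (rho = 0.86), 0.82 for Tie1 (rho = 0.75) and 0.74 for Emcn (rho = 0.43), against r = 0.35 for Cldn5 (rho = 0.29) and r = 0.06 for Kdr (rho = 0.00). There, without the 2 farthest libraries, it was 0.91 for Vwf, 0.88 for Pecam1, 0.79 for Eng, 0.75 for Tek, 0.70 for Tie1, 0.60 for Nos3, 0.49 for Cdh5, 0.08 for Emcn, -0.10 for Cldn5 and -0.61 for Kdr. With peg/peg 3 included, r of Emcn in PE2 was -0.42 (rho = 0.02). These are descriptions over libraries that share their count table and scaling, and no test was made.

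**Figure D3:**
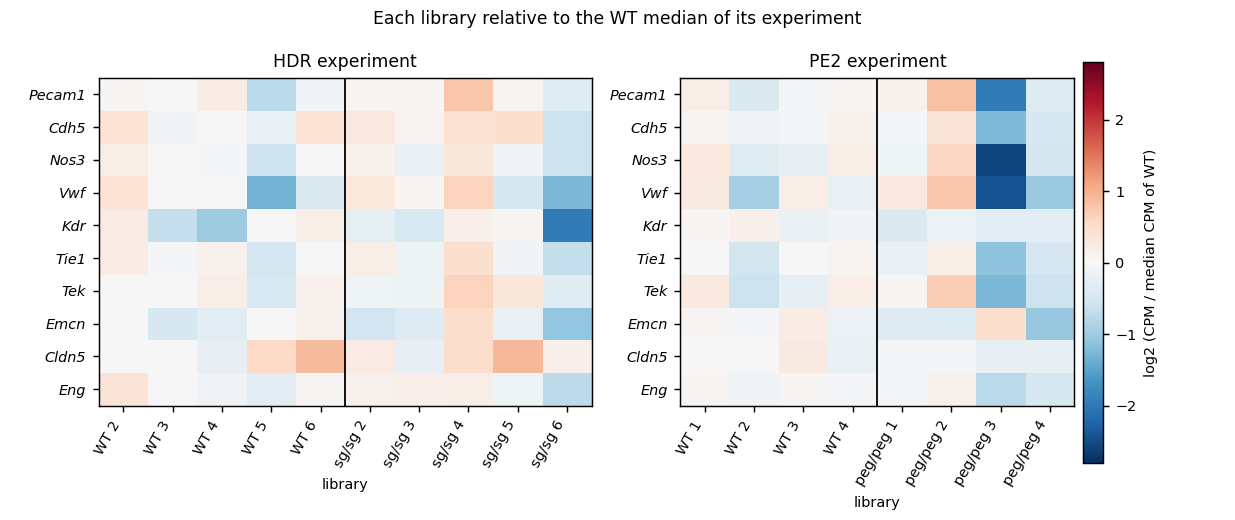
Log2 of each library's CPM over the WT median of its experiment (color scale from -2.8 to 2.8), genes in rows, HDR libraries at left and PE2 libraries at right, with a line between WT and edited libraries. Peg/peg library 3 is the darkest column for Nos3, Vwf and Pecam1 and pale for Kdr, Cldn5 and Emcn, and sg/sg library 6 is low in Kdr, Vwf and Emcn.

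Outside the lists, the 8 genes most like the members in both experiments, by the smaller of the 2 correlations with the mean of the standardized members, were Adgrf5 (r = 0.961 over 10 HDR and 0.944 over 8 PE2 libraries), Arap3 (0.939 and 0.980), Ece1 (0.886 and 0.979), Cyp4b1, Gm9917, AU021092, Palmd and Car8. They were taken from 14761 genes. Without peg/peg 3 the 8 were Stab1, Ly6e, Arap3, Lmo7, Adgrf5, Ece1, Gbp7 and Met, so that Adgrf5, Arap3 and Ece1 appear on both lists. Ece1 encodes the enzyme that makes endothelin active, and Adgrf5 an adhesion receptor.

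The Xist classes of the HDR libraries also differed in the level of some members. Vwf had a mean of 640.5 CPM in the 3 high-Xist and 335 CPM in the 2 low-Xist WT libraries, and 730.3 and 335 CPM in sg/sg. Cldn5 went the other way, with 21.4 and 37.0 CPM in WT and 25.7 and 33.8 CPM in sg/sg. Eng, Nos3, Tie1, Tek and Pecam1 had higher means in the high-Xist libraries of both genotypes, by less. Within the high-Xist libraries all 10 estimates of sg/sg over WT were above 0 (median 0.16), within the low-Xist libraries 7 of 10 were below 0 (median -0.11), and with the class as a covariate the median was 0.03. Members called were 0 in each of these fits, which were added after the data were seen.

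Beyond the members, 24 other pan-endothelial genes were all tested. In HDR 0 of 24 passed either threshold, and the median log2 fold change was 0.09. In PE2 0 of 24 were called and 3 were lower at an unadjusted p under 0.05: Sox18, Ushbp1 and Adgrl4. Sox18, a transcription factor of endothelial and lymphatic development, had 44.9 ± 1.98 CPM in WT and 26.4 ± 7.19 CPM in peg/peg (SD, n = 4), a log2 difference of -0.77 ± 0.18 (SE; unadjusted p = 0.00275, edgeR adjusted p = 0.861). Without library 3 it was -0.73 (edgeR adjusted p = 0.911). In HDR its difference was 0.12 ± 0.24 (SE), and in the interaction it was the only gene of this list with an unadjusted p under 0.05 (0.012, edgeR adjusted p = 0.910). The most abundant genes of the list, Ptprb and Tm4sf1, had log2 differences of 0.11 and 0.12 in HDR and 0.12 and -0.53 in PE2, all with an SE of at least 0.27, and without peg/peg 3 the PE2 values were 0.38 and -0.18.

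The partners of the members in their pathways did not pass the adjusted test in either experiment, in 0 of 12 VEGF and angiopoietin genes, 0 of 10 BMP and TGF-beta genes tested, 0 of 12 nitric oxide genes and 0 of 10 haemostasis genes tested, and 0 of 11 HDR and 0 of 12 PE2 junction partners. Medians of these 5 lists lay between -0.03 and 0.06 in HDR and between -0.09 and 0.11 in PE2 (log2). Among the ligands and receptors of the VEGF family, Nrp1 was the most abundant, with 198 ± 20.2 CPM in WT and 182 ± 32.2 CPM in sg/sg (SD, n = 5) and 111 ± 22.8 and 107 ± 48.1 CPM in PE2 (SD, n = 4). Bmpr2, the type II BMP receptor, had 415 and 466 CPM in HDR, and Cav1, which binds and restrains Nos3, had 862 and 830 CPM in HDR and 1005 and 1147 CPM in PE2, where its log2 difference of 0.19 turned to -0.06 without library 3. The catenins Ctnnb1 and Ctnna1, which tie Cdh5 to actin, differed by no more than 0.14 on the log2 scale in either experiment. Id1, a target of BMP signalling, was higher in peg/peg at an unadjusted p of 0.0486 (0.36 ± 0.16, SE, edgeR adjusted p = 0.861), and without library 3 its unadjusted p was 0.0782 (edgeR, log2 difference 0.35). The junction gene Cgn, near 0 in WT at 0.227 CPM, was at 4.76 CPM in peg/peg with all libraries (4.39 ± 1.79, SE), and at 0.70 in log2 without library 3.

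By vessel type, 0 of 8 arterial, 0 of 6 venous, 0 of 8 capillary and 0 of 6 lymphatic genes tested passed the adjusted threshold in either experiment, as did 0 of 6 genes of endothelial activation. The arterial genes had a median log2 fold change of 0.11 in HDR and of -0.08 in PE2, which turned to 0.11 without peg/peg 3. The capillary genes had a median of -0.12 in HDR and of -0.39 in PE2, or -0.14 without peg/peg 3. Aplnr, the apelin receptor of venous endothelium, was at 28.3 ± 5.20 CPM in WT and 18.2 ± 5.24 CPM in peg/peg (SD, n = 4; -0.64 ± 0.23, SE, unadjusted p = 0.0227), and Lrg1 differed by -0.84 ± 0.33 (SE). Without library 3 the values were -0.82 (unadjusted p = 0.00429) and -0.67 (unadjusted p = 0.0506). In HDR the lymphatic marker Lyve1 was at 40.8 ± 19.3 CPM in WT and 24.9 ± 8.45 CPM in sg/sg (SD, n = 5; -0.71 ± 0.31, SE, unadjusted p = 0.0392), while in PE2 it was at 22.7 and 34.9 CPM (0.62 in log2, and 0.22 without library 3). Lyve1 is also known from resident macrophages of the vessel wall, whose markers are given next. Sele, the inducible selectin of activated endothelium, was close to 0, at 0.764 CPM in WT and 2.11 CPM in peg/peg (1.47 in log2, and 0.82 without library 3).

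Markers of the other cell types of the aortic preparation were summed in each library. Smooth muscle markers summed to 20037 to 29997 CPM in WT and 16802 to 37085 CPM in sg/sg, with 0 of 8 called, and to 27535 to 46381 and 28146 to 60106 CPM in PE2, where the peg/peg libraries other than 3 reached 45250 CPM. All 8 macrophage markers had estimates below 0 in sg/sg, 6 of them with an unadjusted p under 0.05 and 0 after adjustment, and their sum was 274 to 762 CPM in WT and 208 to 374 CPM in sg/sg. In PE2 the sum was 158 to 561 CPM in WT and 297 to 904 CPM in peg/peg, where the highest value is that of library 3 and the other 3 libraries reached 412 CPM. Adipocyte markers summed to 617 to 2577 CPM in WT and 406 to 2123 CPM in sg/sg, and to 799.8 to 2987 CPM in WT and 101 to 2184 CPM in peg/peg, with the lowest value in peg/peg 3 and at least 773 CPM in the other 3. The capillary genes, several of which adipose tissue also holds, summed to 2050 to 3739 CPM in PE2 WT and 1058 to 3003 CPM in peg/peg, or at least 1803 CPM without library 3. The fibroblast list, at 8912 to 14836 CPM in WT and 8517 to 10762 CPM in sg/sg, had a median log2 fold change of -0.17 in HDR and 0.56 in PE2, or 0.33 without library 3. Mesothelial markers, which share Upk1b with the urothelial list, summed to 1.5 to 129.6 CPM in HDR WT and to 779.6 CPM in peg/peg 3, with no more than 36.6 CPM in the other peg/peg libraries. Skeletal and cardiac muscle, lymphoid, platelet, erythroid and Schwann cell markers had 0 genes called in both experiments. At an unadjusted p under 0.05, 5 of 8 skeletal muscle genes were higher in sg/sg and 0 lower, against 1.98% of all genes in either direction. Of the 8 estimates, 6 were above 0 and 2 below. Skeletal muscle markers summed to 6.26 to 127.7 CPM in HDR WT, highest in WT library 3, and to 10.4 to 83.1 CPM in sg/sg. These sums overlapped. In PE2, at the same unadjusted threshold, 4 of 7 cardiac genes were higher in peg/peg with all libraries and 6 of 7 without library 3. The defining blood markers were not absent, with 24.8 to 1209 CPM of erythroid genes over the PE2 libraries. The part of these cell types in the levels of the 10 endothelial genes was not tested.

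**Figure D4:**
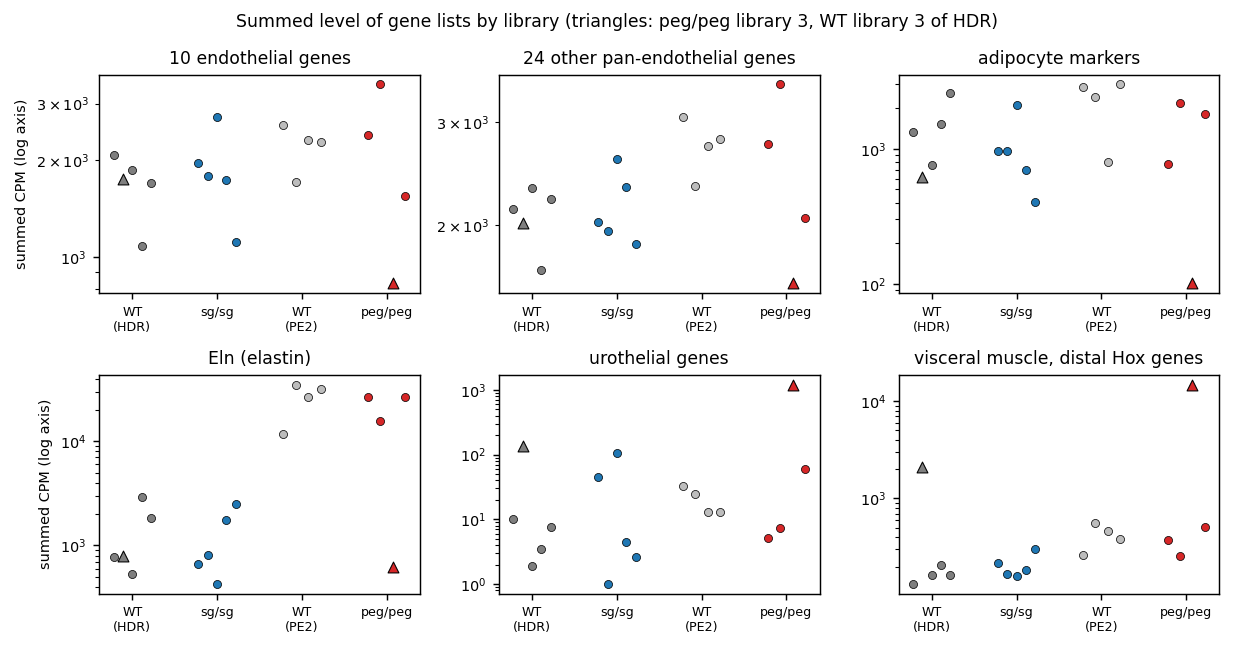
Summed CPM (vertical log axes) of the 10 members, 24 other pan-endothelial genes, adipocyte markers, Eln, urothelial genes and visceral muscle and distal Hox genes in each library of the 4 groups; triangles are peg/peg library 3 and WT library 3 of HDR. Peg/peg 3 is the lowest PE2 library in the first 4 panels and the highest in the last 2, where its sums are 1198 and 14742 CPM, and the HDR WT library 3 is within the members' range.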

How the data were processed

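Bulk RNA was sequenced from 18 mouse aortae. According to the methods and the submitters' processing notes, the authors trimmed the reads, aligned them with STAR 2.7.0f to GRCm38 with Gencode M22, and counted them per gene with featureCounts (Subread 1.6.4). The deposited raw counts are whole reads per gene symbol. Their normalized tables, made with DESeq2 1.22.1, were not used. The kit and read length given in the labels are not those of the methods. The strand setting is not stated, so reads of overlapping antisense genes cannot be separated.

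From the counts, edgeR 4.0.16 (R 4.3.3; TMM, filterByExpr, quasi-likelihood test) was fitted per experiment on genotype over all genes that passed the filter, with Benjamini-Hochberg adjustment and a threshold of 0.05. The interaction used all 18 libraries. DESeq2 1.42.0 (Wald test) and limma 3.58.1 (voom) were alternatives. CPM uses TMM-scaled library sizes, and per kb divides by union exon length (Gencode M21). Correlations used log2(CPM + 1), centred on the genotype mean, in Python 3.11.15 (pandas 2.3.3, numpy 2.4.6, scipy 1.17.1). The edgeR fit was tested on simulated counts with the same dispersion for all genes and large changes put in. This does not cover the smaller differences and the wider spreads of some members.

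The members, lists and tests were chosen with earlier results of these data known. Besides the members, the genes to name were, per list and experiment, the 2 of highest mean CPM and up to 4 with the smallest unadjusted p under 0.05, then the 8 most like the members, then Tspan2. For the lists of other cell types only sums and counts are printed. A gene that this rule names is not reported here. Genes named for peg/peg 3 were chosen after their values were seen. No column of the count tables was left out. The deposited counts were compared for duplicates: over 32 pairs within groups the chi-square per degree of freedom was at least 17.2, so no pair agreed within sampling noise. Counting error is small at these depths.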

Additional observations from a re-analysis of the deposited data

Results flagged for a closer look

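In groups of 4 or 5 libraries, each extreme was set against Dixon's 95% critical value for the 10 members and Tspan2 in the 4 groups, 44 sets of values. A single value exceeded it. Pecam1 in sg/sg library 4 was at 1084 CPM, while the other sg/sg libraries were at 504 to 664 CPM, a gap of 0.724 of the range of the group. Chance flags about 1 in 20 groups, and 44 were looked at. The same library held 107 CPM of urothelial and 59.9 CPM of mesothelial genes, and the part of these in its values was not tested. It was the highest of the HDR libraries for 6 members in all (Pecam1, Nos3, Vwf, Tie1, Tek and Emcn), and without it the median log2 fold change of the members in HDR was -0.08. Peg/peg library 3 did not exceed the limit for any member, although it was the lowest of 8 for 8 of them.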

How the results depend on the processing

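The number of members called was 0 in each of the 3 comparisons under all settings run. These were voom, the Wald test of DESeq2, its size factors in edgeR, a filter of 10 counts in all libraries or of 1 count over them, robust dispersions (not run for the interaction), a threshold of 0.10 and the omission of each library in turn. In PE2 this also held for sex as a covariate and the female libraries alone. In those fits edgeR called no gene at all, Tspan2 included. The same was so when peg/peg 1, 2 or 4 or WT 1, 2 or 4 was left out. Without WT 3 it called 1 gene, which was higher and so was not Tspan2. A count of 0 members says little in these PE2 fits. Over all genes DESeq2 called more than edgeR in HDR (4 against 1), PE2 (33 against 1) and the interaction (12 against 0), and edgeR without the filter called 4 in HDR. Left-out libraries moved the median log2 fold change of the members between -0.08 (without sg/sg 4) and 0.14 (without sg/sg 6) in HDR and between -0.46 (without peg/peg 2) and -0.04 (without peg/peg 3) in PE2, and a single member changed its side of 0 in 28 of 190 HDR, 17 of 170 PE2 and 12 of 240 interaction refits, none of them called. With the replicate number as a block in PE2, 0 members were called, Tspan2 was no longer called, and the median was -0.30. The deviations of same-numbered libraries correlated at -0.23 to -0.02, and 0 of 8 libraries correlated best with its own number. With 4 numbers this cannot show whether the numbers pair the mice. HDR columns carry no number that pairs them. With 3 to 5 libraries a group, SEs of 0.18 to 0.35 (HDR) and 0.10 to 0.61 (PE2) limit what can be seen.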
